A study of Rattus norvegicus with 27 samples.

Results

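Gene expression in tail motor neurons of the rat was compared between 60 and 21 days after the sacral spinal cord had been cut. The comparison took every array titled as transected at 60 days (8 arrays) or at 21 days (8 arrays), 16 of the 27 arrays of the study, and every probe set of the deposited table that was not a spike-in or control (12913 probe sets). The other 11 arrays came from sham-operated rats at the same days (6 at 21 days and 5 at 60 days) and are given as the reference level where a result turns on it. Arrays were chosen by their titles alone, and no measured value entered that choice. All rats were male Wistar and the study's title calls them adult. In the transected groups the vertebrae over the lumbar cord were opened, the cord was cut at a sacral level and 1 to 2 mm of tissue was removed. Sham rats had the laminectomy with the dura left whole. All 4 groups received buprenorphine for the first 48 h and an injection of Fluorogold into muscle and into the abdomen 5 to 7 days before the cord was taken, so that neurons with axons outside the cord took up the dye. Fluorescent cells were cut by laser from 10 µm frozen sections, 100 to 200 cells per sample according to the sample labels, and their RNA was amplified in 2 rounds before it was hybridised. The labels number the arrays of a group as biological replicates without naming the animal, the litter or the day of preparation. The p-values therefore measure the spread between these samples, which may in part be technical.

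Tail motor neurons lie in the sacral cord below the cut and stay connected to their muscles, but they lose the fibres that descend from the brainstem and carry serotonin and noradrenaline. In this model the tail is limp at first and becomes spastic over the following weeks, with long involuntary contractions. Persistent inward calcium and sodium currents of the motor neurons sustain the spasms, and serotonin receptors of the 5-HT2 family that are active without serotonin help to restore these currents. The 21- and 60-day groups address how the transcriptome of these neurons moves while spasticity develops.

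Signals are given on the log2 scale of the deposited values, so that a difference of 1 is a change of 2-fold in signal. Each difference is the 60-day mean minus the 21-day mean over 8 arrays each, with its standard error (SE) from a linear model of all 27 arrays (limma). A gene is said to have risen or fallen where its p-value, adjusted by the Benjamini-Hochberg method over the 12913 probe sets, was under 0.05. Where a gene had several probe sets, the probe set with the highest mean signal stands for it. In samples made of many cells, fewer cells of a type and less RNA per cell cannot be told apart.

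The arrays carried the transcripts of large motor neurons. The neurofilament gene Nefh had a mean of 14.3 at 21 days and 14.4 at 60 days, and the intermediate filament gene Prph 13.2 at both times, against medians of 6.31 to 6.41 over all probe sets of an array. Calca, which encodes CGRP, lay at 12.4 and 12.3, and Slc5a7, the choline transporter that feeds acetylcholine synthesis, at 10.7 and 10.9. Of 20 motor neuron identity genes measured, 14 lay above the array medians. The mean of the 20 ranged from 9.13 to 9.38 over the 21-day arrays and from 9.25 to 9.45 over the 60-day arrays. Isl1, a transcription factor of motor neurons, lay below the medians (6.16 and 6.06). Markers of glia were present as well. The mean of 12 astrocyte genes ranged from 8.13 to 8.84 at 21 days and from 8.34 to 9.21 at 60 days, and 10 of them lay above the array medians. The mean of 14 oligodendrocyte genes ranged from 7.27 to 7.79 and from 7.47 to 8.24, with 10 above the medians. The mean of 15 microglia genes ranged from 5.96 to 7.52 and from 6.26 to 7.54, with 8 above the medians. No marker of these lists was at 0. One sham array stood apart: replicate 4 of the 60-day sham group had a motor neuron identity mean of 8.09, against 9.09 to 9.36 in the other 60-day sham arrays.

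The 21-day transected arrays fell into a pair of sets in a control measure. The arrays carry probe sets for the 3′ and the 5′ end of GAPDH, and the gap between them widens as transcripts are shortened by degradation or by amplification. The gap was 2.57 to 3.47 in 21-day replicates 1 to 4, 0.985 to 1.46 in 21-day replicates 5 to 8, and 2.85 to 3.85 in the 60-day arrays. Over the other 23 arrays of the study it ran from 2.31 to 3.85, so replicates 5 to 8 lay below every other array. Both ends contributed, since the 3′ signal of replicates 5 to 8 (9.20 to 9.67) lay below that of replicates 1 to 4 (10.1 to 10.5) and their 5′ signal (7.81 to 8.69) lay above it (7.05 to 7.66). As a difference between the days, the GAPDH gap was 1.25 wider at 60 days (exact permutation test over arrays, two-sided, p = 0.00435, adjusted p = 0.0118 over the 4 control differences tested). Its mean was 3.38 at 60 days, 2.98 in 21-day replicates 1 to 4 and 1.29 in replicates 5 to 8. The test ignores this split of the 21-day arrays, so its p-value does not separate the day from the low values of replicates 5 to 8. The gap between the 3′ end and the middle of GAPDH was 0.60 wider (exact permutation p = 0.00591, adjusted p = 0.0118). The same gap of beta-actin differed by 0.06 from end to end (exact permutation p = 0.675) and by −0.15 from 3′ end to middle (exact permutation p = 0.253). The probe sets that passed and the genes that turn on the split are therefore also given against replicates 1 to 4 and against replicates 5 to 8, and a fit with the GAPDH gap as a covariate is given beside the count of calls.

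**Figure D1:**
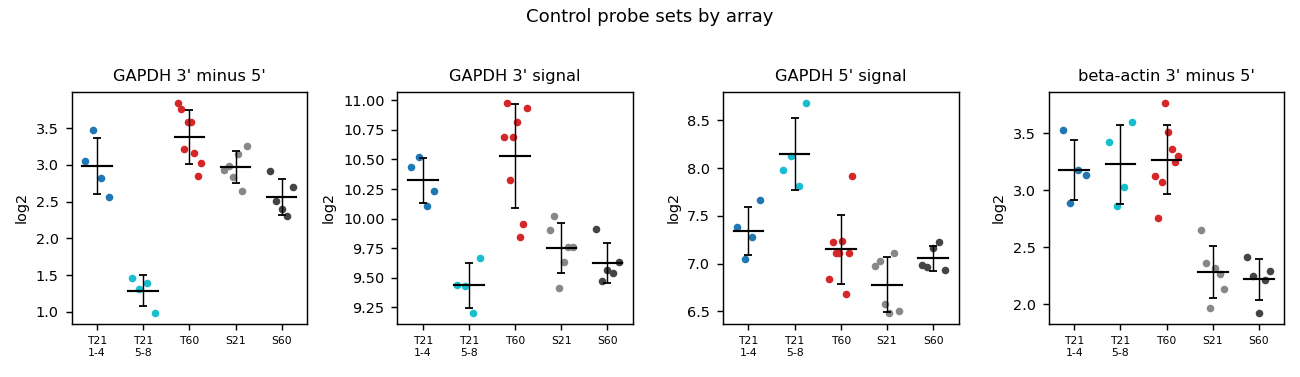
Control probe sets on each array, by group: transected 21 days (T21, replicates 1 to 4 and 5 to 8 apart), transected 60 days (T60), sham 21 days (S21) and sham 60 days (S60); the vertical axes are log2 signal or a difference of log2 signals, points are arrays and bars are the mean ± SD. T21 replicates 5 to 8 have GAPDH 3′ minus 5′ differences of 0.985 to 1.46, below all 23 other arrays (2.31 to 3.85). The beta-actin difference does not separate the T21 sets, but it is larger in every transected array than in every sham array.

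From 21 to 60 days few transcripts of the transected motor neurons passed the test. Transcripts of Nop58 and Dnajc2, which act in ribosome assembly and in folding of new proteins, fell, as did those of the actin regulators Palld and Arpc5l. Transcripts of the calcium store sensor Stim1, the vesicle priming factor Cadps, the repair enzyme Neil1, the GTPase Arf6 and the lipid enzyme Gba2 rose by 1.31- to 1.42-fold. In all, 11 of 12913 probe sets passed (0.0852%), of which 6 were higher (0.0465%) and 5 lower (0.0387%) at 60 days. The largest change was 2.19-fold and the smallest 1.31-fold. For 9 of the 11 the adjusted p lay between 0.0436 and 0.0458, close to the threshold. All 11 had the same sign against 21-day replicates 1 to 4 and against replicates 5 to 8. The difference that chose the 11 is the average of the differences against the sets. The shared sign is therefore a description and no separate support. In a fit of all 27 arrays that kept the sets as groups of their own, 1 of the 11 passed against replicates 1 to 4 and 10 passed against replicates 5 to 8. Values against a set come from that fit unless stated otherwise. Where replicates 5 to 8 were instead left out of the fit, 4 of the 11 were among 52 calls: Nop58, Cadps, Neil1 and Zranb1. Where replicates 1 to 4 were left out, 10 of the 11 were among 630 calls.

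Across all probe sets the median difference was 0.0077, and 98.6% of the probe sets (12736) differed by less than 0.5. The median SE was 0.118. At an unadjusted p under 0.05 there were 1706 probe sets (13.2%), 920 higher (7.12%) and 786 lower (6.09%). Differences over 2-fold were met in 3 probe sets, all lower at 60 days. They were Palld, a probe set with no gene name (−1.18, adjusted p = 0.129) and Reg3b, a secreted lectin (−1.91, adjusted p = 0.300). The Reg3b mean was higher in the sham group of either day than in the transected group of that day.

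**Figure D2:**
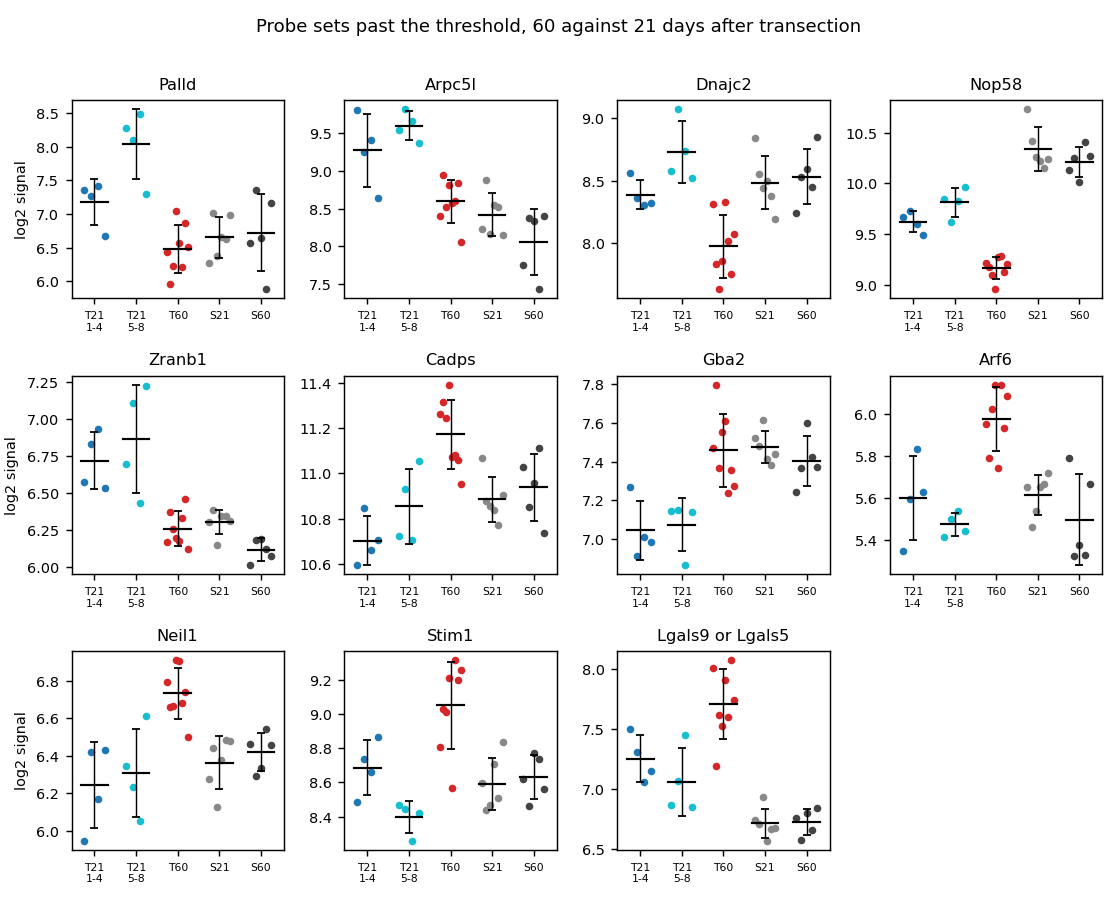
Log2 signal of the 11 probe sets past the threshold between 60 and 21 days after transection, 1 panel each, for T21 replicates 1 to 4, T21 replicates 5 to 8, T60, S21 and S60 (T, transected; S, sham; number, days); points are arrays and bars are the mean ± SD. In the Nop58 panel all 8 T60 arrays (8.96 to 9.29) lie below all 8 T21 arrays (9.49 to 9.96), and both lie below the sham arrays (10.0 to 10.7).

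Nop58, a core protein of the small nucleolar particles that guide methylation of ribosomal RNA, had the smallest p-value. Its lowest, median and highest log2 signals were 9.49, 9.70 and 9.96 at 21 days and 8.96, 9.19 and 9.29 at 60 days. Every 60-day array was below every 21-day array. The difference was −0.55 ± 0.0854 (SE, 95% interval −0.73 to −0.38, limma adjusted p = 0.0075), a fall of 1.46-fold. With both sets in the fit it was −0.46 against replicates 1 to 4 (adjusted p = 0.0508, or 0.0437 with replicates 5 to 8 left out) and −0.65 against replicates 5 to 8 (adjusted p = 0.000526). The sham mean of a gene is, here and below, the mean over all 11 sham arrays of both days. Nop58 signals of these 11 arrays ran from 10.0 to 10.7. The 21-day mean was thus already 0.56 below the sham mean and the 60-day mean 1.11 below it, and no transected array reached the sham range.

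Dnajc2 encodes a chaperone that sits on the ribosome and handles newly made proteins. Its signals were 8.30, 8.54 and 9.07 (lowest, median, highest) at 21 days and 7.64, 7.94 and 8.33 at 60 days, and 6 of the 8 later arrays were below all earlier ones. Dnajc2 fell by 0.58 on the log2 scale (SE 0.119, limma adjusted p = 0.0458). The sham arrays (8.19 to 8.85) covered most of the 21-day range, so that here the 60-day group was the lower one. The decrease was 0.41 against replicates 1 to 4 (not past the threshold, adjusted p = 0.137) and 0.75 against replicates 5 to 8 (adjusted p = 0.00218).

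The actin regulators behaved otherwise beside the sham level. Palld, a scaffold protein of actin bundles and focal adhesions, had signals of 6.68, 7.39 and 8.49 at 21 days and 5.96, 6.48 and 7.04 at 60 days. In 6 of 8 arrays the later signal lay below all earlier ones, and the highest earlier values came from replicates 5 to 7. The Palld difference was −1.13 ± 0.224 (SE, 95% interval −1.59 to −0.67, limma adjusted p = 0.0436), or 2.19-fold, with −0.70 against replicates 1 to 4 and −1.56 against replicates 5 to 8. Sham arrays ran from 5.88 to 7.35: the 21-day mean was 0.93 above the sham mean and the 60-day mean 0.20 below it.

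Arpc5l encodes a subunit of the Arp2/3 complex, which starts branched actin filaments. Its signals were 8.64, 9.48 and 9.83 at 21 days and 8.05, 8.59 and 8.95 at 60 days, with 5 of the 8 later arrays below all earlier ones. Arpc5l fell by 0.84 (SE 0.166, limma adjusted p = 0.0436), a fold of 1.80. It was −0.68 against replicates 1 to 4 and −1.01 against replicates 5 to 8. The mean was 1.19 above the sham mean at 21 days and 0.34 above it at 60 days, with sham arrays of both days pooled. Sham signals of Arpc5l were themselves lower later, at 8.15 to 8.88 at 21 days and 7.43 to 8.40 at 60 days. A second probe set of Arpc5l gave −0.26 with an adjusted p of 0.497.

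The fifth probe set that fell belongs to Zranb1, a deubiquitinase that trims ubiquitin chains. It is not the brightest probe set of that gene and is named here after its values were seen. Its signals were 6.43, 6.76 and 7.22 at 21 days and 6.12, 6.23 and 6.46 at 60 days, with 7 of 8 later arrays below all earlier ones. The Zranb1 difference was −0.53 ± 0.0927 (SE, limma adjusted p = 0.0248), with −0.46 against replicates 1 to 4 and −0.61 against replicates 5 to 8. The 60-day mean lay 0.04 from the sham mean of both days pooled. Sham signals were 6.15 to 6.38 at 21 days and 6.02 to 6.19 at 60 days. The brighter probe set of Zranb1 gave −0.05 (adjusted p = 0.923), so the probe sets of this gene disagree.

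Among the genes that rose, Stim1 encodes the sensor in the endoplasmic reticulum that opens calcium entry when the stores run down. Its signals were 8.26, 8.48 and 8.87 at 21 days and 8.57, 9.11 and 9.31 at 60 days. Of the later arrays, 6 of 8 were above all earlier ones, and the ranges overlapped. The Stim1 difference was 0.51 ± 0.102 (SE, 95% interval 0.30 to 0.72, limma adjusted p = 0.0436), with 0.36 against replicates 1 to 4 and 0.65 against replicates 5 to 8. The 21-day mean lay 0.07 below the sham mean and the 60-day mean 0.44 above it. A dimmer second probe set of Stim1 gave −0.06 (adjusted p = 0.853).

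Cadps encodes a protein that primes dense-core vesicles, the carriers of neuropeptides, for release. Its signals were 10.6, 10.7 and 11.1 at 21 days and 11.0, 11.2 and 11.4 at 60 days, and 7 of 8 later arrays were above all earlier ones. The highest 21-day value came from replicate 8. Cadps rose by 0.39 ± 0.0796 (SE, limma adjusted p = 0.0436), or 1.31-fold. With both sets in the fit, Cadps passed against replicates 1 to 4 (0.47, adjusted p = 0.0482) and did not pass against replicates 5 to 8 (0.32, adjusted p = 0.0534). The groups lay on either side of the sham mean, 0.13 below it at 21 days and 0.26 above it at 60 days. At 21 days 5 of 8 arrays were below the sham range, and at 60 days 4 of 8 were above it.

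Neil1, a glycosylase that removes oxidised bases from DNA, had signals of 5.95, 6.29 and 6.61 at 21 days and 6.50, 6.71 and 6.91 at 60 days. It rose by 0.46 ± 0.0874 (SE, limma adjusted p = 0.0436), with 7 of 8 later arrays above all earlier ones. Its rise was close to equal against both sets of 21-day arrays (0.49 and 0.42). Arf6, a small GTPase of endosome traffic and of the cell cortex, had signals of 5.35, 5.52 and 5.84 at 21 days and 5.74, 5.99 and 6.14 at 60 days. It rose by 0.44 ± 0.0845 (SE, limma adjusted p = 0.0436), with 6 of 8 later arrays above all earlier ones, and its signal lay under the array medians at both times. The Arf6 rise was 0.38 against replicates 1 to 4 and 0.50 against replicates 5 to 8. The 21-day means of Neil1 and Arf6 lay 0.11 and 0.02 below the sham means, so that the 60-day arrays were the ones that stood off.

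Gba2, an enzyme outside the lysosome that splits glucosylceramide, had signals of 6.87, 7.08 and 7.27 at 21 days and 7.24, 7.42 and 7.80 at 60 days. The rise was 0.40 ± 0.0808 (SE, limma adjusted p = 0.0436), and 7 of 8 later arrays were above all earlier ones. Against replicates 1 to 4 and 5 to 8 it was 0.41 and 0.38. Gba2 had been 0.38 below the sham mean at 21 days and lay 0.02 above it at 60 days. A probe set annotated to both Lgals9 and Lgals5, galectins that bind sugars on cell surfaces, had signals of 6.85, 7.11 and 7.50 at 21 days and 7.19, 7.68 and 8.07 at 60 days. It rose by 0.55 ± 0.111 (SE, limma adjusted p = 0.0436), again with 7 of 8 later arrays above all earlier ones, and which of these genes it measured cannot be told apart. It was 0.46 and 0.65 against the sets. Its sham range was 6.57 to 6.93, below all 8 of the 60-day arrays of Lgals9 or Lgals5 and below 6 of the 8 21-day arrays. The 21-day mean was already 0.43 above the sham mean, and the 60-day mean was 0.99 above it.

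Beside the sham means, taken over both days, the 11 probe sets split in 2 ways. For 4 of them (Arpc5l, Palld, Zranb1 and Gba2) the 60-day mean was closer to the sham mean than the 21-day mean was. For the other 7, Nop58, Dnajc2, Stim1, Cadps, Neil1, Arf6 and the galectin probe set, the 21-day mean was the closer one. These positions are a description, since each rests on the same transected arrays that chose the genes. The beta-actin gap from end to end also set all transected arrays apart from all sham arrays. Its part in these positions was not tested.

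How many probe sets passed depended on single arrays. Leaving out each of the 27 arrays in turn gave between 1 and 83 calls. Without 21-day transected replicate 4 there were 83, of which 42 were higher and 41 lower, and without 21-day transected replicate 2 there were 46. All 11 were among the calls in both cases. Without replicate 4 of the 60-day sham group, the sham array that stood apart in its motor neuron markers, there were 22, again with all 11 among them. The other arrays gave 1 to 16, and without 60-day transected replicate 8, which had the highest microglia marker mean of its group, there were 4. Nop58 passed in all 27 of these fits, with adjusted p from 0.00128 to 0.0316, and Zranb1 passed in 22. Neil1 and Arf6 passed in 10, Cadps in 8, Arpc5l in 7, Palld and Gba2 in 6, and Stim1 and Dnajc2 in 5. A fit of only the 16 transected arrays left Nop58 as the single call, with an adjusted p of 0.0437. With the GAPDH gap as a covariate 92 probe sets passed, 56 higher and 36 lower, and 1 of them was among the 11; Nop58 then stood at −0.45 with an adjusted p of 0.0535.

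**Figure D3:**
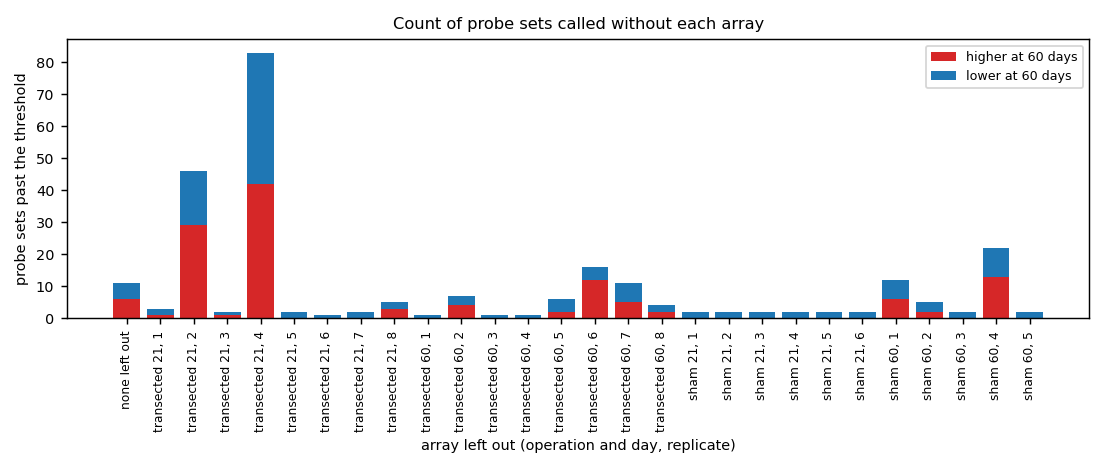
Number of probe sets past an adjusted p of 0.05 between 60 and 21 days after transection (vertical axis, count, stacked as higher and lower at 60 days) when each array named on the horizontal axis is left out. The counts run from 1 to 83, against 11 with all arrays, and the 83 come without 21-day transected replicate 4.

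Groups that did not overlap at all were as rare as calls. In 7 probe sets (0.0542%) the 8 arrays of one day lay beyond the 8 of the other, 6 higher at 60 days (0.0465%) and 1 lower (0.00774%). The lower one was Nop58. Those that were higher without passing the test included Slc6a8, the creatine transporter (0.45, adjusted p = 0.104), Lamtor4, a part of the lysosomal complex that recruits mTORC1 (0.37, adjusted p = 0.0695), Nfyc, a subunit of the CCAAT-binding factor NF-Y (0.45, adjusted p = 0.0808), Rps6ka4, a kinase of the MAP kinase path (0.42, adjusted p = 0.169), and Adgrf5, an adhesion receptor (0.52, adjusted p = 0.0576, in a probe set that is not its brightest). The remaining one had no gene name. These genes were picked after their values were seen.

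Few genes passed in the 44 lists of pathways, receptors, channels and cell type markers. Of 1530 genes in them, 2 passed the threshold, Stim1 in the list of calcium stores and Dnajc2 in that of heat shock proteins and chaperones, against a share of 0.0852% over all probe sets. List medians lay between −0.15 and 0.27, against 0.0077 over all probe sets. With the arrays scaled to one common distribution (quantile normalisation) the median over all probe sets was −0.0036 and 2 lists changed the sign of their median, motor neuron identity (0.03 and −0.03) and metabotropic glutamate receptors. The sign of a list's median also turned with the 21-day set: in 23 of the 44 lists it was opposite against replicates 1 to 4 and against replicates 5 to 8. In what follows, counts of list members are those with an unadjusted p under 0.05 unless stated otherwise. Counts against all 21-day arrays are to be read beside 7.12% higher and 6.09% lower over all probe sets. Counts against a single set have a larger background. In either direction it was 2060 of 12913 probe sets against replicates 1 to 4 and 2395 against replicates 5 to 8. None of the genes named with an adjusted p over 0.05 is a call. In Kcns3, Eef2k, Clcn3 and Arg1 at 21 days, and in Trpv5, Dst, Aif1 and C1qa at 60 days, 1 array lay far from the rest of its group.

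**Figure D4:**
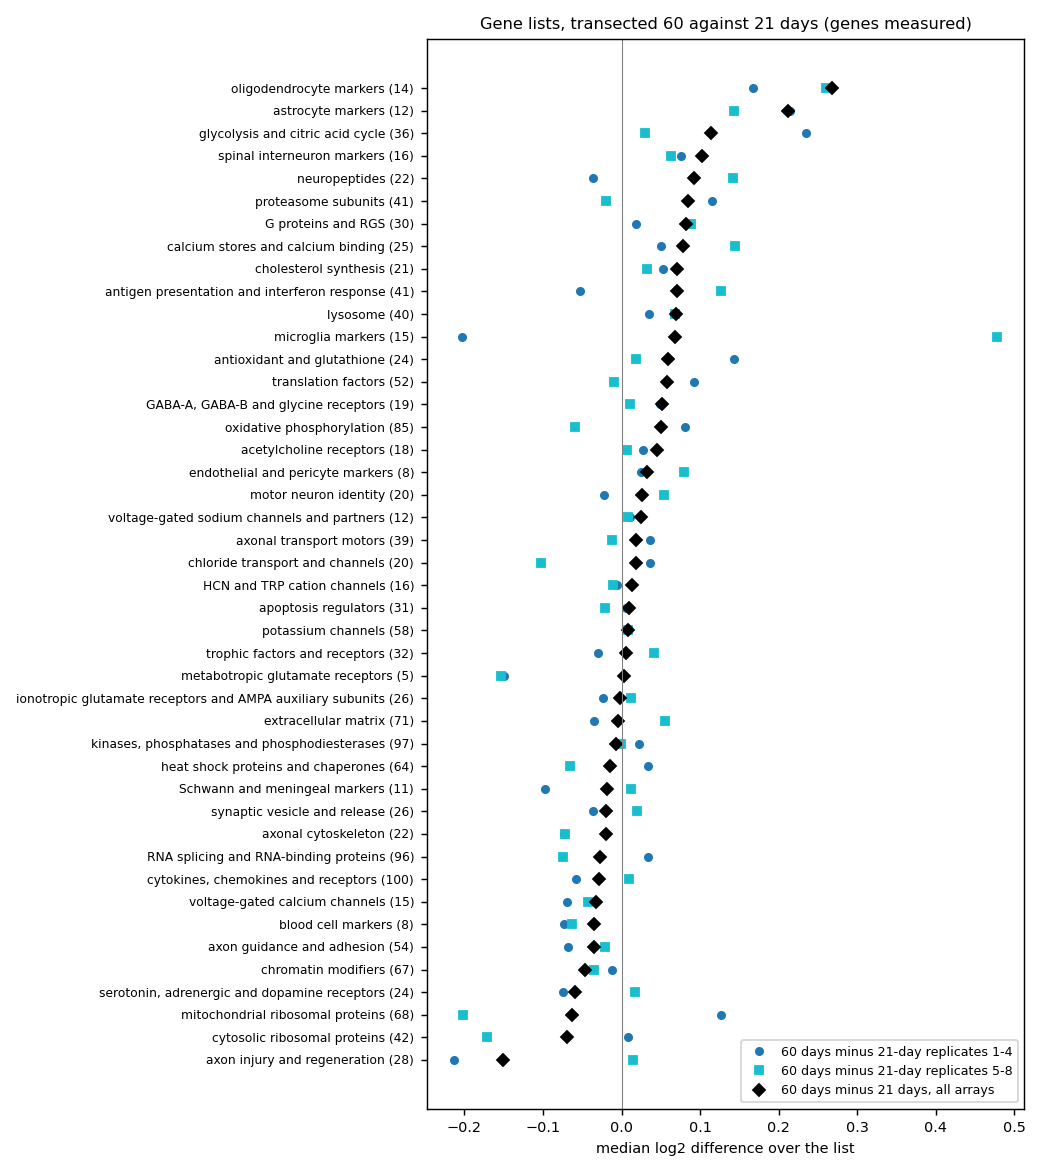
Median log2 difference of each of 44 gene lists (rows) between 60 days and 21 days after transection, against all 21-day arrays, against 21-day replicates 1 to 4 and against replicates 5 to 8 (symbols), with the horizontal axis in log2 units. Against all 21-day arrays the medians lie between −0.15 (axon injury and regeneration) and 0.27 (oligodendrocyte markers).

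In the motor neuron identity list 1 of 20 genes was higher and 0 lower, with a median of 0.03. Slc18a3, the carrier that loads acetylcholine into vesicles, had signals of 6.87, 7.52 and 8.49 at 21 days and 7.63, 8.29 and 8.88 at 60 days. Its ranges overlapped, and the lowest 21-day values came from replicates 6 to 8. The Slc18a3 difference was 0.68 (95% interval 0.19 to 1.16, limma adjusted p = 0.191), made of 0.26 against replicates 1 to 4 and 1.09 against replicates 5 to 8 (adjusted p = 0.0159). Nefm, a neurofilament gene, differed by 0.0046 (adjusted p = 0.994).

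The receptors and channels that set motor neuron excitability gave no call. Of 24 serotonin, adrenergic and dopamine receptors, 0 were higher and 0 lower even at an unadjusted p under 0.05, and their differences ran from −0.25 to 0.18 with a median of −0.06. Htr2a, a 5-HT2 receptor, had signals of 5.62, 6.03 and 6.18 at 21 days and 5.73, 6.07 and 6.26 at 60 days, a difference of 0.02 (95% interval −0.16 to 0.21, limma adjusted p = 0.942). The groups overlapped almost throughout, and these levels lie under the array medians. Htr2c, the 5-HT2 receptor most often tied to constitutive activity, differed by 0.03 (interval −0.14 to 0.20), and Htr2b by −0.10 (interval −0.44 to 0.24). The intervals therefore leave room for differences of up to 0.21, 0.20 and 0.24 upward in these 3 receptors.

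Of 15 voltage-gated calcium channel genes 0 were higher and 1 lower (Cacna1i, a low-threshold T-type channel, −0.19, adjusted p = 0.276), with a median of −0.03. The L-type channel genes Cacna1c and Cacna1d, whose channels carry persistent calcium currents, differed by −0.01 (interval −0.25 to 0.24, and 0.0036 with quantile normalisation) and by −0.00010 (interval −0.25 to 0.25). Among 12 sodium channel genes and partners 0 were higher and 1 lower, Fgf12, which modulates sodium channel inactivation (−0.29, adjusted p = 0.198). Scn9a, a sodium channel gene of peripheral axons, differed by 0.08 with a wide interval (−0.77 to 0.92). Of 58 potassium channel genes 5 were higher and 1 lower. The lower one was Kcna3, a delayed rectifier (−0.32, adjusted p = 0.131), and the higher ones included Kcnd1, an A-type channel (0.37), and the silent subunits Kcns2 (0.25) and Kcns3 (0.50). Of 16 HCN and TRP channel genes 1 was lower, Trpv5 (−0.31).

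Receptors for fast transmitters gave no call either. Of 26 ionotropic glutamate receptor and AMPA auxiliary genes 2 were higher and 1 lower: Grin1, the obligatory NMDA receptor subunit, differed by 0.28 (adjusted p = 0.314), Cacng7 by 0.23 and the kainate receptor gene Grik1 by −0.25. Cacng2, the AMPA receptor partner stargazin, differed by 0.36 (interval −0.13 to 0.85). Of 19 GABA and glycine receptor genes, Gabrd was higher (0.18, adjusted p = 0.204) and Gabra6 lower (−0.21). Of 18 acetylcholine receptor genes 1 was higher, the muscarinic receptor gene Chrm1 (0.23). Of 20 chloride transport genes 1 was lower, Slc12a1 (−0.25), and the intracellular chloride exchanger gene Clcn3 differed by −0.01 (interval −0.50 to 0.47). Of 5 metabotropic glutamate receptor genes Grm7 was lower (−0.30).

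Genes of injury and trophic signalling gave no call. The list of axon injury and regeneration had the lowest median (−0.15), with 1 of 28 genes higher and 2 lower. That median was −0.21 against replicates 1 to 4 (0 higher, 5 lower) and 0.01 against replicates 5 to 8 (3 higher, 1 lower). Plat, the tissue plasminogen activator, differed by 0.40 (adjusted p = 0.173), the stress transcription factor gene Ddit3 by −0.42 (adjusted p = 0.181) and Reg3b by −1.91. Reg3b signals were 6.71, 9.83 and 11.7 at 21 days and 5.37, 7.68 and 11.9 at 60 days. Both groups spanned a wide range and overlapped over most of it. The interval of −3.56 to −0.26 and the adjusted p of 0.300 record this. Reg3b signals of sham arrays ran from 11.4 to 12.6 at 21 days. At 60 days they ran from 11.2 to 12.2, apart from sham replicate 4 at 7.43. All sham arrays except that one lay above the transected median of the same day. Atf3, a transcription factor gene of axotomised neurons, differed by −0.12 (interval −1.16 to 0.91) and Arg1, an arginase gene, by −0.16 (interval −1.41 to 1.09). The trophic list had 0 of 32 genes higher and 4 lower, Il6st, the shared receptor subunit for CNTF and LIF (−0.54, adjusted p = 0.166), Lifr, its partner (−0.19), Met (−0.27, adjusted p = 0.179) and Erbb2 (−0.24). Neuropeptide genes were 0 higher and 2 lower of 22, with Chgb, a granin of dense-core vesicles, at −0.42 (adjusted p = 0.293) and Sst, somatostatin, at −0.38. Vip differed by −0.21 (interval −1.13 to 0.71).

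The lists of axonal cytoskeleton, transport motor and synaptic vesicle genes gave no call. Palld, Arpc5l, Cadps and Arf6, which passed, are not on these lists. Ank3, which encodes the ankyrin that gathers sodium channels at the axon initial segment, had signals of 6.33, 6.98 and 7.53 at 21 days and 5.92, 6.12 and 6.70 at 60 days. The ranges overlapped, with 21-day replicates 5 to 8 (7.09 to 7.53) above every 60-day array. The Ank3 difference was −0.70 (limma adjusted p = 0.0835), made of −0.28 against replicates 1 to 4 and −1.12 against replicates 5 to 8. In the same list of 22 cytoskeleton genes 2 were higher (Map1a 0.30, Sptan1 0.26) and 2 lower (Ank3 and Dst, −0.39). Dync1h1, the heavy chain of the retrograde motor dynein, differed by 0.50 (adjusted p = 0.122), with 0.52 and 0.49 against the sets, and its partner Dctn1 by 0.24. Of 39 transport motor genes 2 were higher and 1 lower. Of 26 synaptic vesicle genes 2 were higher and 0 lower, Dnm1, the dynamin of endocytosis (0.39, adjusted p = 0.163, with 0.05 and 0.73 against the sets), and Cplx1 (0.30).

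Energy genes were mixed. Of 85 oxidative phosphorylation genes 11 were higher and 10 lower, with a median of 0.05. Against replicates 1 to 4, 19 were higher and 2 lower (median 0.08), and against replicates 5 to 8, 9 were higher and 14 lower (median −0.06). Atp5f1a, the alpha subunit of ATP synthase, had signals of 8.73, 9.33 and 9.91 at 21 days and 9.30, 10.0 and 10.4 at 60 days, which overlapped. Its difference was 0.63 (adjusted p = 0.0940), while the respiratory chain genes Ndufa2 and Cox17 differed by −0.45 and −0.48. Of 36 glycolysis and citric acid cycle genes 8 were higher and 0 lower, with a median of 0.11. They included Ogdh of the citric acid cycle (0.31, adjusted p = 0.158) and the glycolytic genes Eno1 (0.38) and Pfkm (0.23). Of 21 cholesterol synthesis genes 3 were higher, among them the regulators Srebf2 (0.33) and Scap (0.28), and 1 lower, Cyp51 (−0.40).

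In the lists of protein synthesis and turnover genes Dnajc2 was the only call. The probe sets of Nop58 and Zranb1 that passed are not on these lists. Cytosolic ribosomal protein genes were 2 higher and 7 lower of 42, with a median of −0.07 (0.01 against replicates 1 to 4 and −0.17 against replicates 5 to 8), among them Rpl21 (−0.32, adjusted p = 0.150), Rpl35 (−0.31) and Rpl22 (−0.37). Mitochondrial ribosomal protein genes were 3 higher and 7 lower of 68, with a median of −0.06, for example Mrps9 (−0.51) and Mrpl4 (0.37). Their direction turned with the base: 13 were higher and 2 lower against replicates 1 to 4 (median 0.13), and 1 was higher and 24 lower against replicates 5 to 8 (median −0.20). Translation factor genes were 6 higher and 1 lower of 52, with Eif4h, a helper of the helicase that unwinds mRNA, at 0.52 (adjusted p = 0.110) and the elongation factor kinase gene Eef2k at 0.50. Of 64 heat shock and chaperone genes 2 were higher and 4 lower, including Dnajc2, which fell, and Hspbap1 (−0.47, adjusted p = 0.0808). Proteasome genes were 1 higher (Psmd5, 0.49) and 1 lower (Psmd12, −0.35) of 41. Splicing and RNA-binding genes were 10 higher and 13 lower of 96, with Snrpf, a core protein of the spliceosome, at −0.35 (adjusted p = 0.0634).

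The lysosomal proton pump gave opposite values for a pair of related subunits. Atp6v1g1, the form of the G subunit found in most tissues, had signals of 6.46, 6.67 and 6.99 at 21 days and 5.62, 6.14 and 6.71 at 60 days, a difference of −0.56 (adjusted p = 0.0622) that was −0.55 and −0.56 against the sets. Atp6v1g2, the neuronal form, had signals of 8.43, 9.12 and 9.68 at 21 days and 9.32, 9.66 and 10.1 at 60 days. Its difference was 0.63 (adjusted p = 0.0853), but 0.16 against replicates 1 to 4 and 1.09 against replicates 5 to 8. For Atp6v1g1 7 of 8 later arrays were below all earlier ones, whereas for Atp6v1g2 the 60-day arrays overlapped replicates 1 to 4 and lay above all of replicates 5 to 8. Ctsd, a lysosomal protease, differed by 0.58 (adjusted p = 0.128), and of 40 lysosome genes 5 were higher and 2 lower.

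Among signalling genes, 13 of 97 kinase, phosphatase and phosphodiesterase genes were higher and 5 lower. Ppp2r1a, the scaffold subunit of protein phosphatase 2A, differed by 0.68 (adjusted p = 0.0808), with 0.19 against replicates 1 to 4 and 1.18 against replicates 5 to 8. Besides Stim1, the list of 25 calcium store and calcium-binding genes held 3 that were higher, among them Hpcal1, a neuronal calcium sensor (0.57, adjusted p = 0.107), and Calb2 (0.61), and 2 that were lower, including Orai3, a channel that STIM proteins open (−0.19). Of 30 G protein and RGS genes 2 were higher (Gnb1 0.43, Rgs14 0.25) and 1 lower (Gnat2 −0.34). Chromatin modifier genes were 5 higher and 5 lower of 67, with Brd8 at −0.58 (adjusted p = 0.107).

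No glial marker passed the test. The medians of astrocyte and oligodendrocyte markers were above 0 against both sets of 21-day arrays, while that of microglia markers turned with the set. Over the same days in sham arrays the median was 0.65 for astrocyte markers (5 of 12 higher) and 0.29 for oligodendrocyte markers (2 of 14 higher). In sham arrays 3.97% of all probe sets had an unadjusted p under 0.05 in either direction. These medians were thus above 0 in sham arrays as well, but single sham arrays stood out at 60 days. The astrocyte marker mean was 9.44 in sham replicate 1 and 9.24 in sham replicate 4. The other 60-day sham arrays (8.11 to 8.44) lay within the 21-day sham range (7.60 to 8.82). For oligodendrocyte markers only 60-day sham replicate 1 (8.68) lay above the 21-day sham range (6.71 to 8.00). Oligodendrocyte markers had the highest list median (0.27), with 1 of 14 higher, the transcription factor gene Olig1 (0.61, adjusted p = 0.118, with 0.48 and 0.75 against the sets). Mbp, the myelin basic protein gene, differed by 0.56 (interval −0.18 to 1.30), but −0.18 and −0.06 in its other probe sets. Astrocyte markers had a median of 0.21 with 2 of 12 higher, S100b (0.41, adjusted p = 0.317) and Aldoc (0.35). Gfap, the astrocyte filament gene, had signals of 8.79, 10.7 and 11.8 at 21 days and 10.3, 11.2 and 12.3 at 60 days. Its groups overlapped, and the Gfap difference of 0.52 (interval −0.11 to 1.16) came to 0.01 against replicates 1 to 4 and 1.04 against replicates 5 to 8. Microglia markers had a median of 0.07, which was −0.20 against replicates 1 to 4 (0 of 15 higher, 2 lower) and 0.48 against replicates 5 to 8 (6 higher, 1 lower), with Csf1r at 0.72 and P2ry12 at −0.27, and Aif1 differed by 0.43 (interval −0.33 to 1.19). Apoe differed by −0.16 (interval −0.62 to 0.29). Endothelial, blood, Schwann and meningeal and interneuron lists held 1 of 8, 0 of 8, 0 of 11 and 2 of 16 genes at an unadjusted p under 0.05. With a glial marker score as a covariate, 2 probe sets passed, 1 of them among the 11. The part of glial RNA in single results was not tested beyond that fit.

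Genes of immunity, matrix and guidance gave scattered values. Ifitm3, an interferon-induced membrane protein gene, differed by 0.88 (adjusted p = 0.119), with 0.27 against replicates 1 to 4 and 1.50 against replicates 5 to 8, as the 1 of 41 antigen presentation and interferon genes that was higher. Of 100 cytokine, chemokine and receptor genes 6 were higher and 9 lower, including Cxcl1 (0.69, adjusted p = 0.147) and Csf1 (0.25). Of 71 extracellular matrix genes 2 were higher and 2 lower, with Hapln2, a link protein of the matrix at nodes of Ranvier, at 0.36 (adjusted p = 0.0888), close to equal against both sets (0.39 and 0.34). Of 54 guidance and adhesion genes 1 was higher and 5 lower, including Epha4, an ephrin receptor (−0.52). Antioxidant genes were 2 higher of 24 and apoptosis genes 1 higher and 1 lower of 31.

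The sets of 21-day arrays differed from each other in far more probe sets than the days did. Between replicates 5 to 8 and replicates 1 to 4 there were 925 probe sets past the threshold (7.16%), 546 higher (4.23%) and 379 lower (2.94%) in replicates 5 to 8. With quantile normalisation there were 911, 434 higher and 477 lower, so that the balance of directions depended on the scaling. The split was proposed with the GAPDH values of these arrays known, so these counts describe the arrays and are no test of a condition. The median correlation between arrays over all probe sets was 0.961 within replicates 1 to 4, 0.959 within replicates 5 to 8 and 0.944 between them, against 0.970 within the 60-day group.

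Ngfr, the low-affinity neurotrophin receptor gene, showed the largest difference between the sets. Its signals were 8.93, 9.53, 8.39 and 9.45 in replicates 1 to 4 and 7.15, 6.81, 6.26 and 5.97 in replicates 5 to 8, which did not overlap. The Ngfr difference was −2.53 ± 0.556 (SE, limma adjusted p = 0.00738). The 60-day arrays (7.47 to 9.55) lay with replicates 1 to 4. Igfbp6, a binding protein of insulin-like growth factors, was lower as well, with 8.40, 9.11, 8.79 and 8.28 against 7.18, 6.73, 7.17 and 7.51, a difference of −1.50 (limma adjusted p = 0.000184), although a second probe set of Igfbp6 gave −0.22. C1qa, a complement gene of microglia, had 8.14, 7.52, 7.49 and 9.94 against 6.75, 6.63, 5.52 and 5.98, a difference of −2.06 (limma adjusted p = 0.0186). The others of the 5 largest were Cldn4, a tight junction gene (−1.64, adjusted p = 0.0484), and Nptxr, a neuronal pentraxin receptor gene (−1.50, adjusted p = 0.0428). Leaving out each of the 16 transected arrays in turn, Cldn4 kept its call in 3 fits, Nptxr in 8 and C1qa in 14, while Ngfr and Igfbp6 kept theirs in all 16.

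Gsta4, a glutathione transferase gene for lipid aldehydes, was the most strongly higher one. Its signals were 6.69, 5.77, 5.87 and 6.38 in replicates 1 to 4 and 8.40, 8.56, 8.86 and 7.03 in replicates 5 to 8, with no overlap. The Gsta4 difference was 2.03 (limma adjusted p = 0.00218), and the 60-day arrays (6.11 to 6.93) again lay near replicates 1 to 4, 0.35 above their mean. Sham arrays of Gsta4 ran from 6.83 to 8.85, nearer replicates 5 to 8. The others were Nadk2, a mitochondrial NAD kinase gene (1.79), Crabp2, a retinoic acid carrier gene (1.74), Hspa2, a heat shock protein gene (1.61, but −0.13 in another probe set), and Lin54, a cell cycle repressor gene (1.55). Of the 16 fits that left out 1 array, Nadk2 and Hspa2 passed in 10, Crabp2 in 14, and Gsta4 and Lin54 in all 16. Unlike Ngfr and Gsta4, Lin54 and Nadk2 had 60-day signals that lay mostly nearer replicates 5 to 8. Lin54 ran from 6.65 to 7.45 at 60 days, against a lowest value of 6.88 in that set and 5.01 in the other. Nadk2 ran from 4.74 to 6.57 at 60 days, against lowest values of 5.91 and 2.80. For Lin54 and Nadk2 the lowest signals of all came from 21-day replicates 1 and 3.

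**Figure D5:**
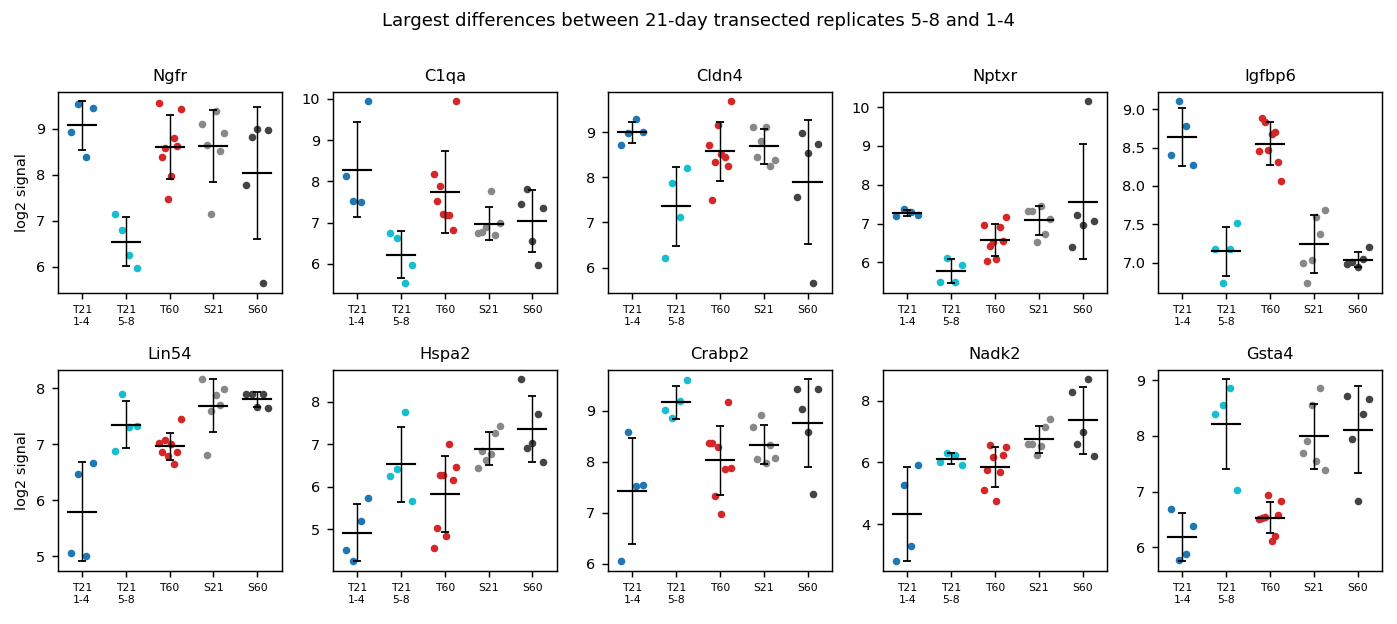
Log2 signal of the 10 genes with the largest differences between 21-day transected replicates 1 to 4 and 5 to 8, 1 panel each, for T21 replicates 1 to 4, T21 replicates 5 to 8, T60, S21 and S60 (T, transected; S, sham; number, days); points are arrays and bars are the mean ± SD. Ngfr runs from 8.39 to 9.53 in the first set and from 5.97 to 7.15 in the second, and Gsta4 from 5.77 to 6.69 and from 7.03 to 8.86.

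By list, mitochondrial ribosomal protein genes had 18 of 68 higher in replicates 5 to 8 and 0 lower, with a median of 0.32 (11 and 0 with quantile normalisation, median 0.22). An example was Mrpl19 (0.98, adjusted p = 0.000184). Proteasome genes had 8 of 41 higher and 0 lower (3 and 1 with quantile normalisation). Heat shock and chaperone genes had 7 of 64 higher and 1 lower (5 and 1), among them Cct8 of the cytosolic chaperonin (1.21, adjusted p = 0.000184). Microglia markers had 3 of 15 lower, Laptm5 (−1.38), C1qa (−2.06) and Cd68 (−0.88), and 0 higher. The mean of the microglia markers ran from 5.96 to 6.35 over replicates 5 to 8 and from 6.55 to 7.52 over replicates 1 to 4. Lysosome genes had 4 of 40 lower, all of them proton pump subunits (Atp6v1g2, Atp6v0c, Atp6v0b and Atp6v1f). These are counts of genes past the adjusted threshold. They stand beside 4.23% higher and 2.94% lower over all probe sets. Those with quantile normalisation stand beside 434 higher and 477 lower of 12913.

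The number of calls over time differed with the 21-day arrays taken as the base. Against replicates 5 to 8, 561 probe sets passed (4.34%), 309 higher (2.39%) and 252 lower (1.95%) at 60 days. Ppp2r1a (1.18) and Atp6v1g2 (1.09) had the smallest adjusted p (2.56e-06), and Dnm1 (0.73) and Ank3 (−1.12) followed with 0.000303. Ngfr was 2.06 higher (adjusted p = 0.0140), and 11 mitochondrial ribosomal protein genes were lower. Against replicates 1 to 4, 10 probe sets passed (0.0774%), all higher at 60 days; quantile normalisation gave 41, 29 higher and 12 lower. That count rested on single arrays: without 21-day replicate 4 it was 656, 398 higher and 258 lower, and without 21-day replicate 3 it was 0. The count against replicates 5 to 8 was 267 without 21-day replicate 7. Over all probe sets, the median correlation of the 60-day arrays was 0.959 with replicates 1 to 4 and 0.960 with replicates 5 to 8. Besides Cadps the 10 were, named after their values were seen, Psenen, a subunit of gamma-secretase (0.73), Rab2b, a GTPase of the Golgi (0.64), Zbtb10 (0.59), Med20 of the Mediator complex (0.54), Pyurf (0.90) and a probe set with no gene name (0.73). The remaining ones act on RNA: Exosc10, a ribonuclease of the nuclear exosome (0.58), Rrp8, a methyltransferase of ribosomal RNA (0.95), and Thumpd3, a methyltransferase of transfer RNA (0.81). The comparisons against each set share the 60-day arrays, and those with the difference between the sets share the 21-day arrays, so they are not independent of each other.

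Whether the time change differed between transected and sham motor neurons was tested as the interaction of injury and day. No probe set passed (limma, 0 of 12913, 0%), and 905 (7.01%) had an unadjusted p under 0.05. Between the sham groups alone 0 passed (0%), with 513 (3.97%) at an unadjusted p under 0.05. The sham count at an unadjusted p under 0.05 ran from 214 without 60-day sham replicate 4, the array that stood apart, to 907 without 60-day sham replicate 5, and was 860 without 60-day sham replicate 3; none of these fits gave a call. A fit that weighted arrays by their quality gave 3 interaction calls. The changes in the 11 probe sets above were thus not shown to differ from the change over the same days in sham neurons. The smallest interaction p-values belonged to Ppm1g, a phosphatase of the spliceosome (0.72 ± 0.148 SE, adjusted p = 0.338), and to Ahsp, a stabiliser of haemoglobin alpha chains (−0.55, adjusted p = 0.338). Igf1, the growth factor gene, came next among the negative ones (−1.35 ± 0.304 SE, adjusted p = 0.440). Igf1 signals were 6.35 to 7.30 in 60-day and 6.42 to 7.82 in 21-day transected arrays, while the 60-day sham arrays (7.42 to 8.96) lay above all 21-day sham arrays (6.37 to 7.23). The others with the smallest p were Fbxo36 (0.54, adjusted p = 0.440), Lamtor4 (0.56, adjusted p = 0.526) and the ribosomal protein gene Rpl26 (−0.95, adjusted p = 0.627).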

How the data were processed

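Per the submitters' processing notes, the authors made expression values with RMA (version not given); the deposited table holds them as log2 signals, 12919 probe sets on 27 arrays. The sources used here do not say how those probe sets were selected. The 6 control probe sets were set aside, which left 12913. Of these, 11880 carried 1 gene symbol in GEO's platform annotation, which can be old, 320 several and 713 none; they gave 9769 genes. Chat and Slc12a5 had no probe set of their own here. All 4 groups were fitted together with limma 3.58.1 in R 4.3.3 (lmFit, eBayes), with Benjamini-Hochberg adjustment over 12913 probe sets; a second fit kept 21-day replicates 1 to 4 and 5 to 8 apart. The scripts' fit was tested on simulated data. Tables and figures used Python 3.11.15, numpy 2.4.6, scipy 1.17.1, pandas 2.3.3 and matplotlib 3.10.9. The number of arrays limits precision.

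Genes were named by rule: up to 15 per direction past the threshold with the same sign against both sets (the 5 with the smallest p where fewer passed), 3 per direction of the interaction, the 5 largest per direction between the sets, up to 4 members of each list with the smallest p, and 17 set genes. By that rule Fgf23 was added to the lower genes (−0.35, adjusted p = 0.0576). The genes, the lists and the split of the 21-day arrays were chosen with earlier results of these data known. Alternatives were quantile normalisation, a signal filter, array weights, a replicate block, covariates for glial markers and for the GAPDH gap, other probe sets, each 21-day set left out, only the compared arrays, and leaving out each array. Same-numbered arrays correlated between −0.170 and 0.202 in their deviations, so numbers were not taken to pair them.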

Additional observations from a re-analysis of the deposited data

Results flagged for a closer look

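In 12 of 328 groups of values tested, 1 array lay far from the rest of its group by Dixon's ratio. Chance alone does this in about 1 in 20 groups, a larger share than the one flagged. Replicate 8 of the 60-day transected group held 4 of them: its C1qa signal was 9.94 against 6.82 to 8.18 in the other 7 arrays, its Aif1 signal 8.14 against 5.33 to 6.36, its mean of microglia markers 7.54 against 6.26 to 6.84, and its GAPDH 5′ signal 7.91 against 6.68 to 7.23. C1qa is one of the genes in the mean of microglia markers, so these flags are not separate observations. In the same group, replicate 1 was high in Dst (12.3 against 11.8 to 11.97) and in Csf3 (5.67 against 5.28 to 5.45). Replicate 5 was low in Trpv5 (4.16 against 4.87 to 5.09) and replicate 3 low in Efnb1 (5.66 against 5.98 to 6.20).

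Among the 21-day transected arrays, replicate 4 was high in Arg1 (10.9 against 6.40 to 7.78) and low in Clcn3 (7.94 against 8.97 to 9.51). It is also the array whose removal gave the most calls between the days. Replicate 8 was high in Kcns3 (9.21 against 6.85 to 7.81), and replicate 7 was low in Eef2k (5.53 against 6.55 to 7.09).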

How the results depend on the processing

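Against the 11 calls between 60 and 21 days, quantile normalisation gave 10 and a filter on signal 10. Other settings moved the count: only the compared arrays gave 1, array weights 2, the glial covariate 2, the GAPDH covariate 92, a fit without 21-day replicates 5 to 8 52 and one without replicates 1 to 4 630; the counts against each set below come from a fit that holds both. The replicate block gave 90 (all 11 among them) and 0 for the interaction. Leaving out 1 array gave 1 to 83 calls between the days, 0 to 656 against replicates 1 to 4 (656 without 21-day replicate 4, 0 without replicate 3), 267 to 597 against replicates 5 to 8 (267 without 21-day replicate 7) and 499 to 1443 between the sets (499 without replicate 3, 518 without replicate 1, 1443 without replicate 4), against 10, 561 and 925. The calls against replicates 1 to 4 became 41 with quantile normalisation and 76 with the filter; array weights gave 3 interaction calls. Between the days, Nop58 passed in each of these alternatives except with the GAPDH covariate (−0.45, adjusted p = 0.0535); in the fit that holds both sets it did not pass against replicates 1 to 4 (adjusted p = 0.0508). Over 150 gene results, 4737 of 5159 values kept direction and side of the threshold, 274 lost the call, 77 gained one and 71 changed sign. Signs changed in other probe sets for Stim1 (−0.059), Hspa2 (−0.13), Htr2a (−0.051), Mbp (−0.18 and −0.060) and Clcn3 (0.32). With the GAPDH covariate they changed for Esam (−0.013), Trpv5 (0.021), Dnm1 (−0.0039), Map1a (−0.14), Srebf2 (−0.0082), Eif5a (−0.075), Atp6v1f (−0.012), Htr2c (−0.012), Cacna1d (0.18), Gfap (−0.16), Clcn3 (0.14) and Vip (0.020). Without replicates 5 to 8 they changed for Map1a (−0.083), Cacna1d (0.13), Aif1 (−0.11) and Clcn3 (0.16), and without replicates 1 to 4 for Cacna1c (0.095), Apoe (0.043), Atf3 (0.48), Arg1 (0.42) and Scn9a (−0.39). Array weights turned Htr2a (−0.019), Cacna1d (0.038) and Clcn3 (0.014), the glial covariate Cacna1d (0.018) and Clcn3 (0.048), and quantile normalisation Cacna1c (0.0036). Leaving out 1 array gave −0.46 to 0.34 for Arg1, −0.39 to 0.10 for Atf3, −0.10 to 0.066 for Cacna1c, −0.047 to 0.084 for Cacna1d, −0.17 to 0.084 for Clcn3, −0.030 to 0.067 for Htr2a, −0.0020 to 0.065 for Htr2c, −0.11 to 0.27 for Scn9a and −0.0094 to 0.14 for the beta-actin gap. The causes were not tested. Dim probe sets, such as the 5-HT2 receptors, limit what can be seen.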
